A study of Mus musculus with 10 samples.

Results

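The cytosolic ribosomal protein genes encode the protein components of the small and large subunits of the cytoplasmic ribosome. Members were the rows of the deposited expression table whose gene symbol was Rps or Rpl followed by a number with an optional a, x or y, together with Rplp0, Rplp1, Rplp2 and Rpsa, and whose mean over the 10 tumours was at least 1 FPKM (a fragment count divided by gene length and library size, so that levels of genes can be compared). The pattern found 76 members among the 55020 rows of the table, 30 of the small and 46 of the large subunit. The limit on the mean removed 0 of them and no symbol had more than 1 row, so that no member lay near the limit. The lowest member mean was 62.7 FPKM. RNA selected for poly-A tails had been sequenced from tumours that Hepa1-6 cells, from a mouse hepatoma, had formed within 4 weeks after subcutaneous injection into C57/BL6 mice. The mice had received vehicle or GSK343, a small-molecule inhibitor of EZH2, the enzyme that methylates histone H3 and keeps its target genes silent, with 5 tumours in each group, described in the series' design text as biological replicates. Vehicle tumours carry the numbers 1, 2, 3, 5 and 6 and GSK343 tumours the numbers 1 to 5, and values are given in that order. The vehicle group was identified by elimination, since only the GSK343 titles name a treatment, and the dose of GSK343 is not given in the sources used here. Injection of either a control or an anti-asialo-GM1 antibody is part of the protocol too and is not tied to single tumours, all tumours came from 1 cell line, and each RNA sample holds host cells as well as hepatoma cells.

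Each ribosome carries 1 copy of nearly every ribosomal protein, apart from the stalk proteins, and cells make the proteins in matched amounts so that the subunits can be assembled in the nucleolus. Vertebrate ribosomal protein mRNAs begin with a C followed by a run of pyrimidines, the terminal oligopyrimidine tract, through which mTOR signalling adjusts their translation. Many introns of these genes hold small nucleolar RNAs, and reverse transcription of their abundant mRNAs has left many processed pseudogenes, intronless copies that are close in sequence to the parent mRNA. Hepatoma cells, like other fast-growing cells, devote a large part of their mRNA to these genes.

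The sequence around an annotated start is shown for 6 members that recur below, because the pyrimidine tract is the regulatory element that the family shares and because its placement differed between them. Each line gives 15 bases before and 15 bases from the RefSeq start (GRCm38.p6), in the direction of transcription. Capitals mark a C followed by at least 4 further pyrimidines (C or T) that reaches within 5 bases of the start. Only the run nearest the start is marked, and Rps27 holds a further such run, left in lower case, before the marked one. The windows lie in Rps21 at chr2:180257364-180257393 (+ strand), Rps27 at chr3:90213634-90213663 (- strand), Rps23 at chr13:90923107-90923136 (+ strand), Rpl39 at chrX:37085208-37085237 (- strand), Rps25 at chr9:44407699-44407728 (+ strand) and Rpl5 at chr5:107900513-107900542 (+ strand).
Rps21: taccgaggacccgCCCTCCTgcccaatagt
Rps27: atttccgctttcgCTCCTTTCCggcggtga
Rps23: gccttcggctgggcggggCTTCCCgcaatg
Rpl39: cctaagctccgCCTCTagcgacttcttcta
Rps25: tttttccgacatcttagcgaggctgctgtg
Rpl5: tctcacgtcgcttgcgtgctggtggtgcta
Rps21, Rps27, Rps23 and Rpl39 held a tract within the printed window, whereas Rps25 and Rpl5 held no such run there. A second annotated start of Rps21 (180257449) and the starts of Rpsa and Rpl9, which also recur below, held none either. The RefSeq table matched 56 of the 76 members with 66 starts. A tract near the start was found at 32 of the 66 starts (48.5%), against 24.8% of all 32851 starts in the table. Exactly at the start it was found at 13 starts (19.7%), against 2.51% of all starts. Only the transcribed strand was searched, and a match is a match of letters at annotated starts, which were not measured in these tumours.

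Rps21 also hosts a microRNA gene, Mir3091, in an intron (chromosome 2, 180257536 to 180257611, mm10, 76 bases), which overlaps 0 exons of Rps21 and lies 88 bases after one exon and 9 bases before the next. Its mature sequences from the RefSeq table are given because its row is among the few in the whole table that differed between the treatments. Capitals mark the seed, bases 2 to 8.
mmu-miR-3091-5p: cAUGGGUCugguugggcccgc
mmu-miR-3091-3p: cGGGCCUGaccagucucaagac
The 2 arms have different seeds.

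The table holds no read counts. The spacing of the low values pointed to 38.5 to 50.9 M reads (mega) per tumour, an inference from the values only. Transcripts of liver origin were present in both groups, with Alb (albumin) at 3129 ± 318 to 2810.3 ± 278 FPKM and Afp (alpha-fetoprotein) at 2085 ± 197 to 1775 ± 252 FPKM from vehicle to GSK343, whereas the adult hepatocyte genes Cps1 and Apoc3 were listed at 0 in all tumours. In GSK343 replicates 3 and 5 the mitochondrially encoded genes held 7.17% and 7.11% of the summed FPKM, against 2.63% to 5.05% in the other tumours. The p-values below set the difference between the groups against the spread between tumours within them.

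Ribosomal protein transcripts were among the most abundant in the tumours. The median member mean was 932 FPKM, against 9.86 FPKM over the 14496 rows tested, and 73 of the 76 members ranked among the top 500 rows of the table. Per unit of length, the highest means belonged to Rplp1 (3520.5 FPKM), Rps14 (3444 FPKM), Rplp2 (2786 FPKM) and Rplp0 (2306 FPKM), so that all 3 proteins of the stalk, the arm of the large subunit that recruits elongation factors, stood within the top 4. The lowest belonged to Rpl7a (62.7 FPKM), Rpl21 (154 FPKM), Rpl29 (177 FPKM) and Rpl17 (199 FPKM), all of the large subunit. The 56.1-fold range between Rplp1 and Rpl7a concerns reads assigned to the genes' own rows. For the 4 lowest members between 82.7% and 95.4% of the summed FPKM of the gene and its processed pseudogenes stood in pseudogene rows, as described below. The median over members was 971 ± 77.97 FPKM (SD, n = 5) for the small and 897 ± 67.3 FPKM for the large subunit in vehicle tumours.

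The comparison of GSK343 with vehicle asked whether inhibition of EZH2 changed these transcripts. 0 of 76 members were called higher and 0 lower at a limma adjusted p under 0.05, where 0.0828% of all 14496 rows tested were called in either direction (0.069% higher and 0.0138% lower). At an unadjusted limma p under 0.05, 3 members were lower (Rps25, Rps21 and Rpl29) against a background of 6.86% of all rows, and 1 was higher (Rpl39) against 10.7%. The smallest adjusted p among members was 0.192, for Rps25. The groups did not overlap in 3 members, all with lower values in GSK343 (Rps25, Rpl29 and Rpsa), where 1.2% of all rows separated in that direction, 1.42% in the other and 2.62% in either.

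Without a test, the mean log2(FPKM + 1) of 54 of 76 members (71.1%) was lower in GSK343, against 52.4% of all rows. The median log2 difference over members was -0.082, against -0.011 over all rows. Among the 606 other protein-coding rows with a mean of at least 100 FPKM, 364 (60.1%) had a lower mean and the median was -0.057, so that abundant genes outside the family also had lower means more often than higher ones. Members held 15.3, 13.3, 12.98, 14.7 and 14.5% of the summed FPKM in the vehicle tumours and 12.6, 13.7, 12.2, 15.6 and 11.4% in the GSK343 tumours, or 14.2 ± 0.966% against 13.1 ± 1.62% (SD, n = 5). The groups overlapped, and both the highest share (replicate 4) and the lowest (replicate 5) were in GSK343 tumours. The number of the 76 members above their group's mean log2 value was 65, 24, 15, 40 and 58 in the vehicle tumours and 15, 52, 28, 72 and 9 in the GSK343 tumours. It was most one-sided in GSK343 replicates 4 and 5 and near an even split in vehicle replicate 5.

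Markers of other cells differed between the groups at the same time. The 12 pan-leukocyte markers, genes such as Ptprc and Cd53 that blood-derived cells share, were all measured, none was at 0, and the mean of 12 of 12 was higher in GSK343, 10 of them at an unadjusted limma p under 0.05 (against 10.7% of all rows) and 0 at an adjusted one. Their summed level was 315 to 905 FPKM in vehicle and 631 to 1082 FPKM in GSK343 tumours. The highest leukocyte sums of each group were in vehicle replicate 2 and in GSK343 replicates 5 and 3, whose member shares of 13.3%, 11.4% and 12.2% lay below their groups' means. The order was not the same throughout. The lowest vehicle share, 12.98%, was in replicate 3, with a sum of 546 FPKM. GSK343 replicate 4, with a higher sum of 631 FPKM, had the highest share of all tumours, 15.6%. A link between sums and shares was not tested. When each tumour's pan-leukocyte score (mean log2 level of these markers) entered the limma fit as a covariate, 19 of 76 members were lower and the median log2 difference was 0.11, the opposite direction. The score itself was higher in GSK343 (5.44 ± 0.415 against 4.57 ± 0.573 in vehicle). The fit therefore cannot separate it from the treatment, and nothing is concluded from the turn in sign. The 12 skeletal muscle markers tested also had higher means in GSK343, 12 of 12, with sums of 14.6 to 136 FPKM in vehicle and 83.4 to 522 FPKM in GSK343 tumours. Mb, Myl1, Tnnc2, Ckm, Myh1 and Myh4 were listed at 0 in vehicle replicate 2 and in no other tumour. Of the macrophage and monocyte markers 14 of 15 had higher means in GSK343 (12 at an unadjusted p under 0.05), with sums of 520.1 to 2013 and 1134 to 2306 FPKM. Of the fibroblast and matrix markers 14 of 15 had higher means (10 at an unadjusted p under 0.05, Postn and Col5a1 without overlap), with sums of 3036 to 3558 and 3071 to 4129 FPKM. None of the markers of either list was at 0. The hepatocyte markers tested had lower means in 12 of 12 (4 at an unadjusted p under 0.05, against 6.86% of all rows), with sums of 4211 to 5674 and 3366 to 4526 FPKM. Apoc3, Cps1 and Serpina1c of that list were at 0 in all tumours. The fetal liver and hepatoma markers tested were mixed. Of them 6 of 8 had lower means (3 at an unadjusted p under 0.05) and 2 higher, with log2 differences up to 0.405. Lower means were also found in 7 of 7 keratinocyte and 16 of 20 proliferation markers, against 52.4% of all rows, and higher means in 7 of 10 endothelial markers. In all these lists 0 genes were called. The part of leukocyte, muscle, macrophage, fibroblast and hepatocyte transcripts in the members' values was not tested. In bulk samples, fewer hepatoma cells and less ribosomal protein mRNA per cell cannot be told apart. Leaving out GSK343 replicates 3 and 5, the tumours with the most mitochondrial RNA, left 44 members lower, with a median of -0.018.

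**Figure D1:**
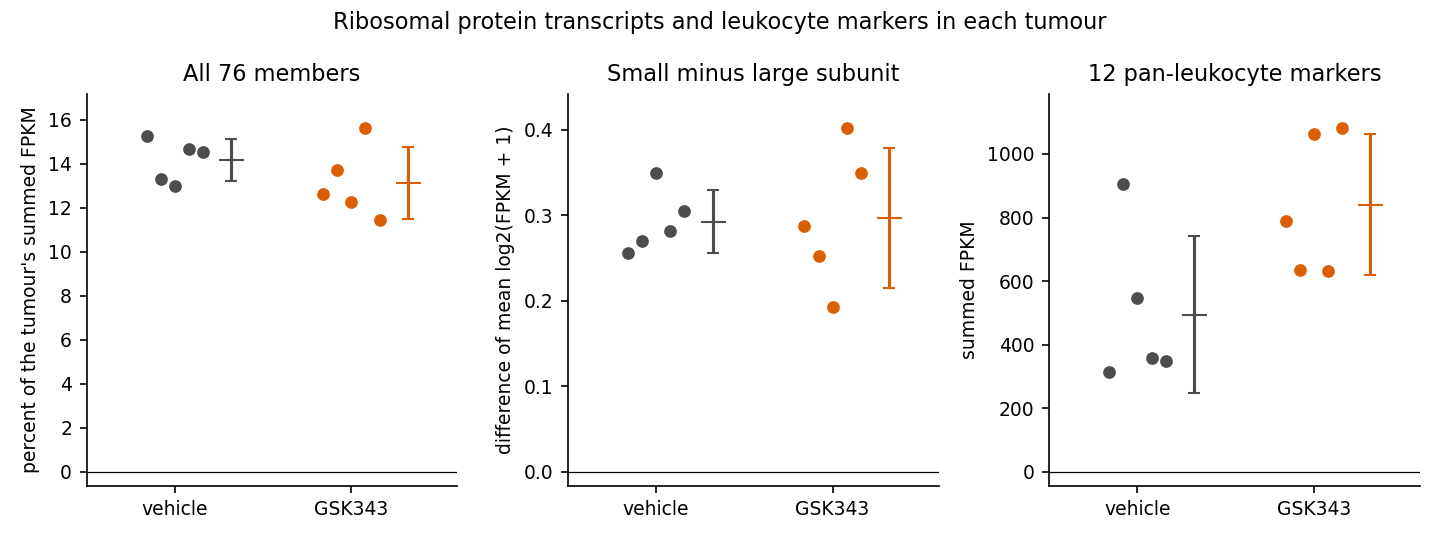
Each point is 1 tumour, with the mean and SD of its group (n = 5) beside it: the percent of summed FPKM held by the members (left), the small minus large subunit difference in mean log2(FPKM + 1) (middle) and the summed FPKM of pan-leukocyte markers (right). The member shares of the groups overlap (12.98% to 15.3% and 11.4% to 15.6%), the mean subunit difference is 0.29 and 0.30, and the leukocyte sums of all GSK343 tumours lie above those of 4 of the 5 vehicle tumours. The subunit difference includes Rpl29, which is near 1 FPKM in GSK343 replicates 1, 4 and 5. This raises the difference in those tumours, so nothing is read from the close group means.

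The small minus large subunit difference in mean log2 value cannot be compared between the groups as it stands. The row of Rpl29, a large subunit member, distorts it in GSK343 replicates 1, 4 and 5. The mean log2(FPKM + 1) of small subunit members exceeded that of large subunit members by 0.256, 0.2697, 0.349, 0.282 and 0.305 in the vehicle tumours and by 0.287, 0.252, 0.193, 0.402 and 0.3496 in the GSK343 tumours, that is by 0.29 ± 0.037 against 0.30 ± 0.082 (SD, n = 5). The range in GSK343 tumours contained the whole range in vehicle tumours. The large subunit mean includes Rpl29, which stood near 1 FPKM in GSK343 replicates 1, 4 and 5. This lowers that mean, and raises the difference, in those tumours. The close group means, and the GSK343 range that contains the vehicle range, therefore rest on a mean that this row distorts. The difference without Rpl29 was not examined. Nothing is read from the values with Rpl29 about subunit balance. Medians over members, on which a single row weighs little, were 971 ± 77.97 (vehicle) and 925 ± 91.6 FPKM (GSK343) for the small subunit. For the large subunit they were 897 ± 67.3 and 897 ± 126 FPKM. A lower GSK343 mean was found in 25 of 30 small subunit members (83.3%, against 52.4% of all rows), with a median log2 difference of -0.11, and in 29 of 46 large subunit members, with a median of -0.058. Without GSK343 replicates 3 and 5 these medians were -0.036 and 0.017.

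**Figure D2:**
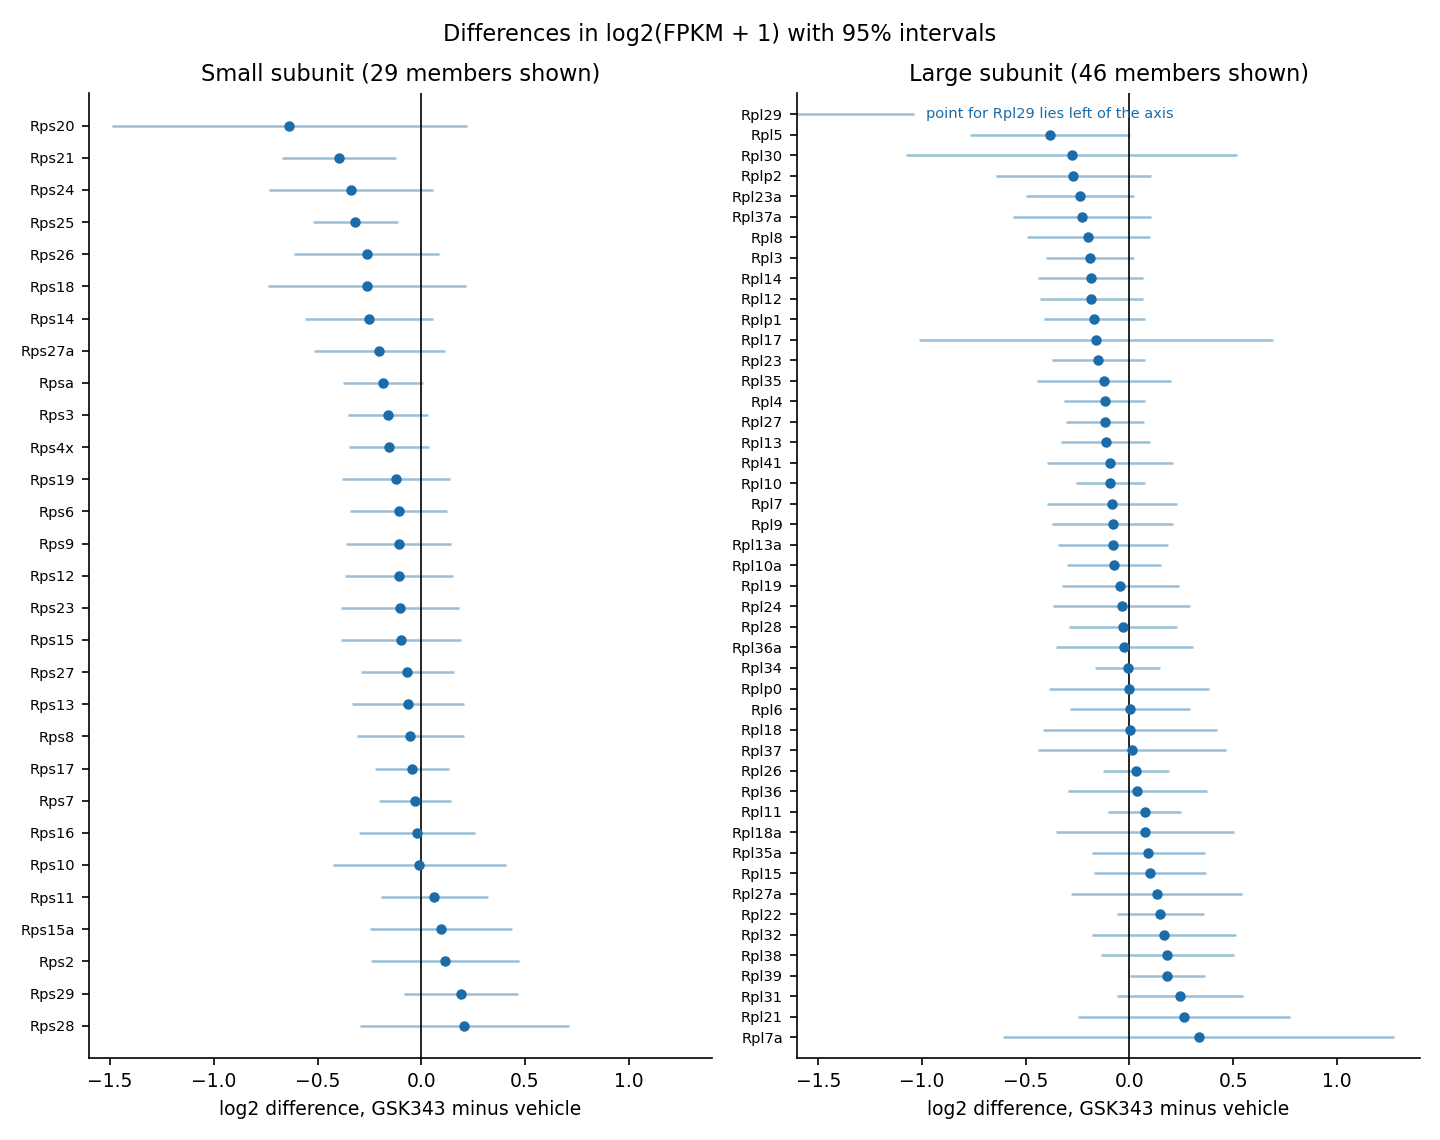
Points give the difference in log2(FPKM + 1), GSK343 minus vehicle, of 29 of the 30 small (left) and all 46 large (right) subunit members, ordered by size, and bars give limma's 95% interval. Points lie left of 0 for 24 small and 29 large subunit members, and few intervals exclude 0; the point for Rpl29 (-4.20) lies beyond the axis.

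Among small subunit members, Rps25 (GENCODE M21, chromosome 9, 44407139 to 44410427), a protein of the subunit's head that some viral mRNAs need to recruit ribosomes, stood at 784, 665, 669, 739.8 and 744 FPKM in the vehicle tumours and 614, 636, 593, 474 and 581 FPKM in the GSK343 tumours. Every GSK343 tumour lay below every vehicle tumour, with means of 720.2 ± 51.5 and 579.6 ± 62.6 FPKM (SD, n = 5; log2 difference -0.32, limma adjusted p = 0.192). Its pseudogene rows summed to 427, 317, 362, 435 and 408 FPKM in the vehicle and 356, 369.8, 391, 471 and 378 FPKM in the GSK343 tumours, highest in GSK343 replicate 4, which was lowest in Rps25 itself. With these rows added the log2 difference was -0.19 (limma adjusted p = 0.249) and the groups overlapped, GSK343 replicate 2 (1006 FPKM) lying above vehicle replicate 2 (982 FPKM). Rps21 (GENCODE M21, chromosome 2, 180257377 to 180258445), one of the smaller proteins of the subunit, stood at 1821, 1652, 1491, 1825 and 2031 FPKM in the vehicle tumours and 1469.5, 1302, 1242, 1629 and 1079.6 FPKM in the GSK343 tumours. GSK343 replicate 4 was higher than vehicle replicate 3, and the other 4 GSK343 tumours lay below all vehicle tumours (log2 difference -0.40, limma adjusted p = 0.199).

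Rpsa, which is also known as a laminin receptor, stood at 1280.3, 1041, 1035, 1049.7 and 1085 FPKM in the vehicle tumours and 888, 1006, 878, 1028 and 1029.6 FPKM in the GSK343 tumours. The groups did not overlap, although the gap between the lowest vehicle and the highest GSK343 tumour was narrow and the adjusted p was 0.304 (limma). Rps14, the most abundant small subunit transcript and the gene whose loss impairs red cell formation in a myelodysplastic syndrome, ran from 3068 to 4294 FPKM in vehicle and from 2609.8 to 4079.9 FPKM in GSK343 tumours. Rps4x ran from 1887 to 2345 FPKM and from 1745 to 2087 FPKM. Rps6, the target of the S6 kinases, had a log2 difference of -0.11, with a 95% interval of -0.34 to 0.13, so that a change of either sign within these bounds is compatible with the values. Rps29 ran the other way without passing any threshold (824 to 952 FPKM, log2 difference 0.19, limma adjusted p = 0.438).

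Of the large subunit, Rpl39 (GENCODE M21, chromosome X, 37082520 to 37085402), a very small protein lining the tunnel through which the growing chain leaves, stood at 475, 472, 444, 472 and 522 FPKM in the vehicle tumours and 470.1, 524, 597, 594 and 529 FPKM in the GSK343 tumours. It was the member with the smallest p in the upward direction, yet GSK343 replicate 1 lay among the vehicle tumours (log2 difference 0.18, limma adjusted p = 0.282). Rpl31, near the mouth of the same tunnel, stood at 1114 ± 212 and 1306 ± 134 FPKM (log2 difference 0.24, limma adjusted p = 0.378). Rpl38, known for its part in translating homeotic gene mRNAs, stood at 854 ± 102 and 982 ± 207 FPKM (log2 difference 0.18, limma adjusted p = 0.532), and both pairs of groups overlapped.

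Rpl5 and Rpl11 form, with a small ribosomal RNA, the particle that binds Mdm2 and stabilizes p53 when ribosome assembly fails. Rpl5 stood at 931, 761, 682, 519 and 831 FPKM in the vehicle tumours and 761, 514, 482, 601 and 486 FPKM in the GSK343 tumours (log2 difference -0.38, limma adjusted p = 0.286), with overlap of the groups, with vehicle replicate 5 among the low GSK343 tumours and GSK343 replicate 1 within the vehicle range. Rpl11 stood at 542 ± 41.99 and 570.1 ± 44.4 FPKM and differed by 0.074 on the log2 scale, with a 95% interval of -0.10 to 0.25. For the stalk, the log2 differences were -0.17 for Rplp1 and -0.27 for Rplp2. Rplp0, their anchor on the ribosome and a common reference gene in quantitative PCR, had means of 2275 ± 212 and 2336 ± 630.2 FPKM, and its sign turned with the scaling. In Rplp0 the GSK343 tumours ran from 1661 to 3072 FPKM, on both sides of the vehicle range of 2026 to 2605 FPKM. Rpl3, close to the peptidyl transferase centre, stood at 701 ± 80.7 and 613 ± 57.7 FPKM (log2 difference -0.19, limma adjusted p = 0.332).

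Rpl29 (GENCODE M21, chromosome 9, 106429454 to 106431568), a large subunit protein without which mice are small but viable, showed the widest gap in its own row. It stood at 286, 249, 254, 267 and 253 FPKM in the vehicle tumours and 1.15, 223, 239.6, 1.45 and 1.06 FPKM in the GSK343 tumours. GSK343 replicates 1, 4 and 5 were near 1 FPKM, whereas replicates 2 and 3 lay just below the vehicle range (log2 difference -4.20, limma adjusted p = 0.208). Its pseudogene rows summed to 958, 767, 820.0, 903 and 829 FPKM in the vehicle and 749, 861, 809.5, 1020.5 and 754 FPKM in the GSK343 tumours. Of the 3 tumours with a low Rpl29 value, replicate 4 had the highest sum of its group, and replicates 1 and 5 the 2 lowest. Whether reads of Rpl29 were assigned to its pseudogene rows in these tumours was not tested. With these rows added the log2 difference of Rpl29 was -0.28 (limma adjusted p = 0.289), with overlap of the groups, since GSK343 replicate 2 (1083 FPKM) lay above vehicle replicate 2 (1016 FPKM). The members' values without Rpl29 had a median log2 difference of -0.081.

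**Figure D3:**
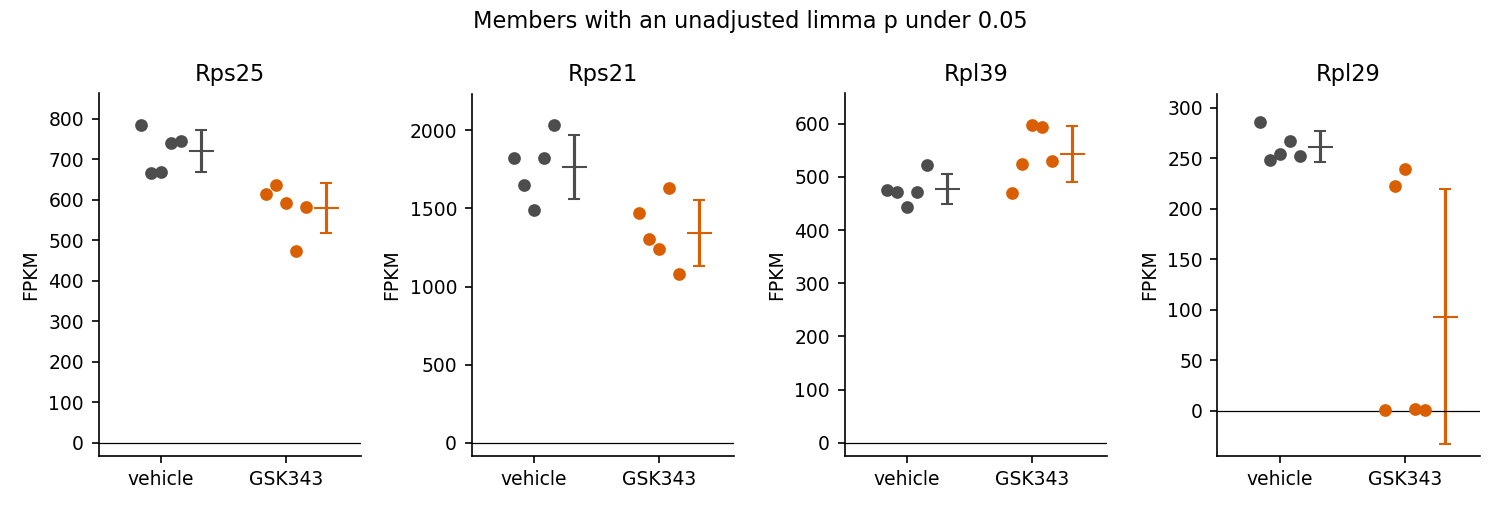
FPKM of Rps25, Rps21, Rpl39 and Rpl29 in each tumour (points), with the mean and SD of each group (n = 5) to the right of its points. Rps25 separates without overlap, Rps21 and Rpl39 each overlap in 1 GSK343 tumour, and the GSK343 tumours of Rpl29 split into 3 near 1 FPKM and 2 above 200 FPKM.

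The row of Mir3091, inside Rps21, was one of the 12 rows called in the whole table. Its values were 0.00257 to 0.00492 FPKM in the vehicle tumours and 2.41, 4.95, 2.504, 5.36 and 2.77 FPKM in the GSK343 tumours, without overlap (log2 difference 2.14, limma adjusted p = 0.00162). Being near 0 in every vehicle tumour, it passed the limit on the mean only through its GSK343 values, so that a row of this kind had to differ to be tested at all. The size of the difference depended on the pseudocount, being 5.08 with a pseudocount of 0.1 in place of 1. Rps21 itself was lower in 4 of 5 GSK343 tumours than in any vehicle tumour, as given above. A mature microRNA has no poly-A tail and the feature of 76 bases lies 9 bases from an exon of an mRNA at 1554 FPKM, and whether reads of Rps21 transcripts contribute to the row was not tested. In all, 65 small RNA rows lay inside 31 members, 57 of small nucleolar RNAs and 7 of microRNAs, and 1 of the 30 tested was called. That one was Mir3091 itself, where 0.0828% of all rows were called, and because of how it passed the limit nothing is read from this share.

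Every member had at least 1 processed pseudogene in the table. Rows were assigned to a parent by aligning their transcripts to all protein-coding transcripts and keeping those whose best or nearly best match was a member. This placed 1715 pseudogene rows, 639 of them with a mean of at least 1 FPKM. Together they held 10.4 ± 0.714% of the summed FPKM in vehicle and 9.74 ± 1.101% in GSK343 tumours (SD, n = 5), beside the 14.2% and 13.1% of the members themselves. In 27 of 76 members more FPKM stood in pseudogene rows than in the member's own row. The share reached 95.4% for Rpl21 and 92.5% for Rpl7a, and was 2.21% for Rpl22 and 1.95% for Rplp1. Reads of near-identical copies cannot be assigned with certainty, so that the levels of members with a high share are uncertain.

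The spread between tumours of a group was compared for a member's own row and for the sum with its copies. The median coefficient of variation within groups was 14.5% for the members' own rows and 12.03% for sums of a member and its pseudogene rows, and it was lower as a sum in 51 of 76 members. 5 members exceeded 30% on their own, namely Rpl17 (57.6%), Rpl7a (54.4%), Rpl29 (50.6%), Rps20 (41.6%) and Rpl30 (36.3%). As sums none did, and the highest was 22.1%. A sum over many rows tends to vary less by construction, and one dominated by pseudogene rows takes on their spread. Across the 76 members, the coefficient of variation of the own row and the share in pseudogene rows had a Spearman correlation of 0.164, given as a description since members share libraries. With these sums in place of the members' rows, 65 of 76 were lower in GSK343, the median log2 difference was -0.10, and 0 were called (smallest limma adjusted p = 0.212; 4 lower and 1 higher at an unadjusted p under 0.05). In no member did these sums separate the groups in either direction, Rps25, Rpl29 and Rpsa included. The log2 difference of Rpl39 went to 0.29 and that of Rpl31 to 0.16. Among the named members, 2 turned from a higher to a lower mean this way, Rpl21 from 0.26 to -0.21 and Rpl7a from 0.33 to -0.066.

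**Figure D4:**
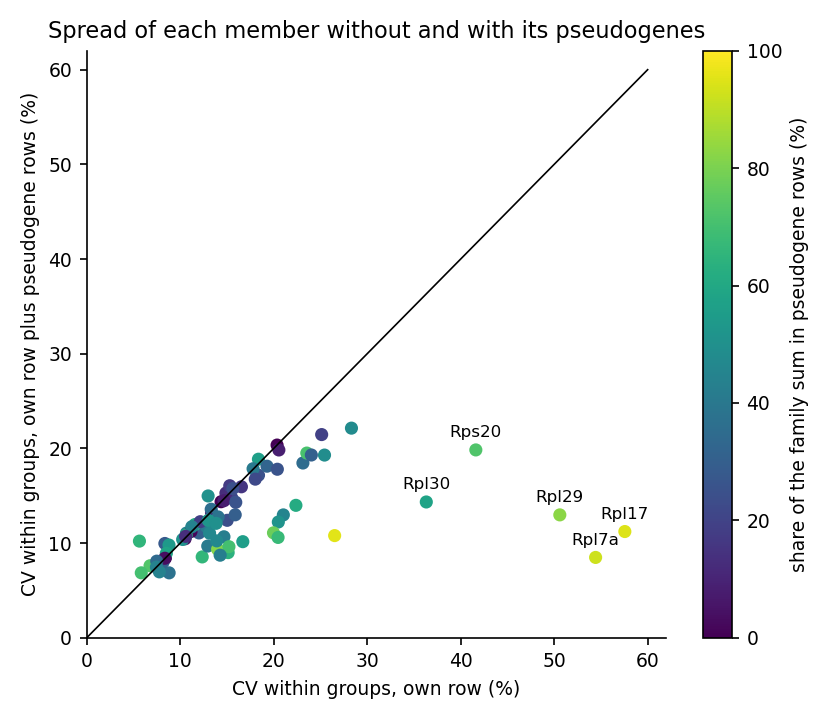
Coefficient of variation within groups of each of the 76 members in its own row (horizontal axis) and as the sum of its own and its pseudogene rows (vertical axis), coloured by the share of that sum standing in pseudogene rows. The line marks equal values; the 5 named members lie above 30% on the horizontal axis and below 22.1% on the vertical axis.

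A few single pseudogene rows were called while their parents were not, and the difference between copy and parent was not tested. Of the 639 pseudogene rows tested, 4 were called higher and 0 lower in GSK343 (0.626%, against 0.0828% of all rows), and they were the only processed pseudogenes of any gene among the 12 called rows. These rows were singled out after their values were seen. Gm15516 (chromosome 14, 45713132 to 45713324) stood at 8.59, 8.22, 9.89, 8.28 and 10.1 FPKM in the vehicle tumours and 13.8, 24.5, 25.3, 22.2 and 23.9 FPKM in the GSK343 tumours (log2 difference 1.17, limma adjusted p = 0.0267), and its transcript was 99.5% identical to the mRNA of Rpl9 over the aligned bases. Gm5451 (chromosome 13, 66874081 to 66874659) stood at 6.23, 5.49, 6.03, 6.05 and 6.45 FPKM in the vehicle tumours and 7.89, 12.3, 12.3, 11.2 and 11.3 FPKM in the GSK343 tumours (log2 difference 0.75, limma adjusted p = 0.0473) and is another copy of Rpl9. Rpl9 itself, a large subunit protein at the base of a stalk, stood at 1083 ± 133 and 1030.1 ± 181 FPKM (log2 difference -0.081, limma adjusted p = 0.778).

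Gm13827 (chromosome 5, 115053469 to 115053840) stood at 4.09, 3.67, 5.33, 4.45 and 4.39 FPKM in the vehicle tumours and 6.94, 11.3, 14.01, 12.9 and 9.89 FPKM in the GSK343 tumours (log2 difference 1.13, limma adjusted p = 0.0438) and aligned to Rps23 at 95.7% identity. Rps23 is a protein of the decoding centre, and its own log2 difference was -0.10. Gm19246 (chromosome 7, 42488801 to 42489055) stood at 2.64, 2.78, 3.09, 2.76 and 3.57 FPKM in the vehicle tumours and 4.74, 9.88, 11.1, 10.7 and 8.17 FPKM in the GSK343 tumours (log2 difference 1.28, limma adjusted p = 0.0473) and belongs to the Rps27 family, where Rps27 had a log2 difference of -0.066 and its retrotransposed relative Rps27rt one of 0.087. In all 4 rows the GSK343 tumours lay above every vehicle tumour, and GSK343 replicate 1 was the lowest of its group. Their levels, at most 25.3 FPKM, were small beside those of the parents. Over all 639 pseudogene rows 460 (71.99%, against 52.4% of all rows) had a lower mean in GSK343, with a median log2 difference of -0.11. At an unadjusted p under 0.05, 105 rows were lower, against 6.86% of all rows, and 62 higher, against 10.7%. The count of 4 called rows depended on single tumours and on the processing. It was 16 without GSK343 replicate 1, 1 without vehicle replicate 3, 6 without vehicle replicate 2, and 0 when any of the other 7 tumours was left out. It was also 0 without the filter on low values, with the pan-leukocyte or a proliferation score as covariate and without GSK343 replicates 3 and 5, and 1 with median-of-ratios scaling, quantile normalization, tumour weights or a mean of at least 5 FPKM. The log2 differences of the 4 rows were positive in every alternative that kept them, and their adjusted p (limma) reached 0.398 for Gm15516, 0.4801 for Gm5451 and 0.412 for Gm13827 and Gm19246.

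**Figure D5:**
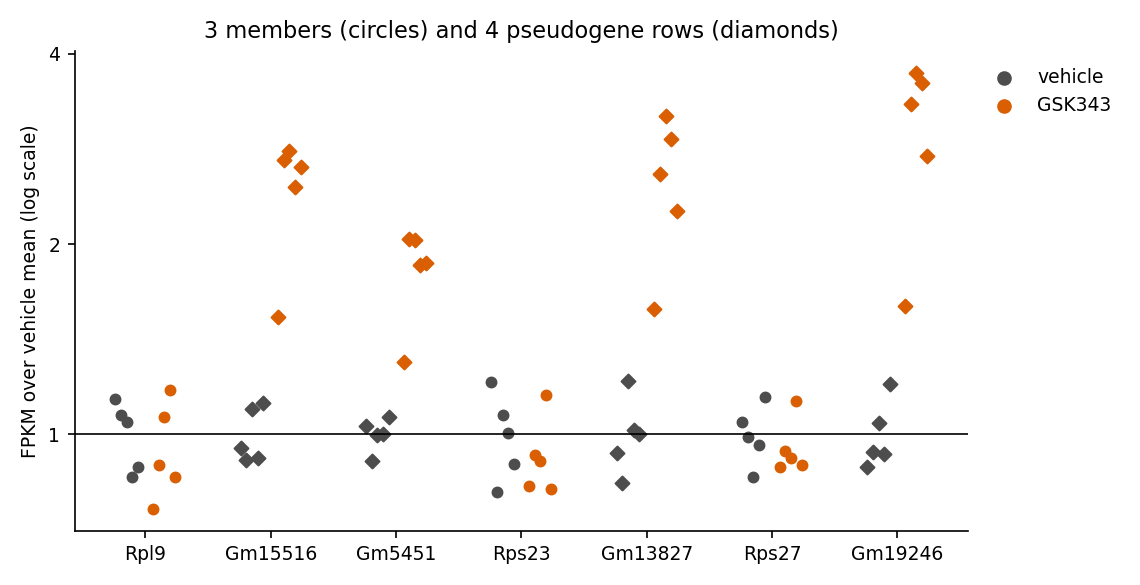
FPKM of Rpl9, Rps23 and Rps27 (circles) and of the 4 called pseudogene rows (diamonds) in each tumour, divided by the row's vehicle mean, on a log2-spaced axis, with vehicle tumours in grey and GSK343 tumours in orange. The parents' groups overlap around 1, and every GSK343 tumour of the pseudogene rows lies above all vehicle tumours.

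Among the paralogs examined, the rows of Rpl22l1 and Rpl37rt had higher FPKM than the member they pair with. Those of Rps27l, Rps27rt, Rps4l, Rpl39l, Rpl3l, Rpl36al, Rpl7l1 and Rpl10l had lower FPKM than theirs. Rpl22, a large subunit protein needed for T cell development, stood at 195 ± 24.6 and 216 ± 18.2 FPKM (log2 difference 0.15, limma adjusted p = 0.433), while its paralog Rpl22l1 stood higher, at 342 ± 28.2 and 305 ± 34.7 FPKM (log2 difference -0.17, limma adjusted p = 0.364), so that the pair differed in opposite directions without passing the threshold. Rpl37rt, a retrotransposed relative of Rpl37, stood at 1870.4 ± 275 and 1746 ± 390.4 FPKM, against 833 ± 199.5 and 835 ± 193 FPKM for Rpl37. How reads were divided between these related rows is not known, so the order of their levels is uncertain. Rps27l, a p53 target, stood at 269.9 ± 24.9 and 258 ± 10.5 FPKM, and Rps4l at 4.94 ± 1.04 and 6.82 ± 0.844 FPKM (log2 difference 0.40, limma adjusted p = 0.193). The row of Rps4l was also counted among the pseudogene rows of Rps4x. Rpl39l, a form known from the testis, ran from 0.9196 to 2.68 FPKM in vehicle and from 0.935 to 5.53 FPKM in GSK343 tumours. Rpl3l, the form of striated muscle, was below the limit for testing, with 0 to 0.1003 FPKM in vehicle and 0.151 to 1.84 FPKM in GSK343 tumours. These groups did not overlap, and Rpl3l was highest in GSK343 replicate 3, the tumour with the highest skeletal muscle marker sum (522 FPKM). Of the 12 tested ribosomal proteins outside the pattern, 8 had a lower mean in GSK343 (against 52.4% of all rows). Gnb2l1, the Rack1 scaffold of the small subunit, was among them, at 1417 ± 116 and 1222 ± 112 FPKM (log2 difference -0.21, limma adjusted p = 0.254).

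Most genes that work with these proteins also had lower means in GSK343, and 0 of them passed the limma threshold in either direction. The counts below stand against 52.4% of all rows, and 60.1% of the other protein-coding rows of at least 100 FPKM, with a lower mean. At an unadjusted p under 0.05, 6.86% of all rows were lower and 10.7% higher. Among elongation factors, 7 of 8 (87.5%) had a lower GSK343 mean, with a median log2 difference of -0.21 and 4 lower at an unadjusted p under 0.05. Eef1g, a subunit of the exchange factor for the protein that delivers aminoacyl-tRNA, went from 668 ± 31.7 to 572 ± 60.4 FPKM (limma adjusted p = 0.222). Among initiation factors, 24 of 30 (80%) were lower with a median of -0.13 (8 at an unadjusted p under 0.05), and Eif2s2, a subunit of the factor that brings the initiator tRNA, went without overlap from 111 ± 5.38 to 93.9 ± 3.73 FPKM (limma adjusted p = 0.189). Other mRNAs with a terminal oligopyrimidine tract, some of them in these lists too, were lower in 21 of 24 (87.5%) with a median of -0.19 (8 at an unadjusted p under 0.05).

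Of the ribosome biogenesis genes, 41 of 50 (82%) had a lower mean, with a median of -0.11, 8 lower and 1 higher at an unadjusted p under 0.05. The gene that was higher was Tsr2, a chaperone of Rps26, at 3.66 ± 2.29 to 7.94 ± 2.47 FPKM from vehicle to GSK343 (limma adjusted p = 0.191). For RNA polymerase I, which makes ribosomal RNA, 10 of 15 genes were lower (median -0.13, 2 lower at an unadjusted p under 0.05), and its subunit Polr1d went without overlap from 166 ± 15.2 to 131 ± 14.8 FPKM (limma adjusted p = 0.191). Host genes of small nucleolar RNAs were divided, with 6 of 13 lower and a median of 0.027. Genes of mTOR and Myc signalling were divided too, with 13 of 26 lower and a median of -0.0058. The mitochondrial ribosomal proteins, the most similar family by function, were lower in 60 of 77 (77.9%), with a median of -0.11, 14 lower and 2 higher at an unadjusted p under 0.05, and Mrps34 went from 42.05 ± 3.89 to 24.5 ± 11.5 FPKM (limma adjusted p = 0.192). The median of the cytosolic members, -0.082, lay among those of these lists, and no difference between lists was tested.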

How the data were processed

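Poly-A RNA of 10 tumours was sequenced on an Illumina HiSeq instrument, per the series' design text. The header of the authors' deposited table names no unit, and its values were taken as FPKM because of their range and spacing. Per the submitters' processing notes, reads were handled with StringTie 1.3.3b, HISAT2 2.1.0 and Trimmomatic 0.33 on mm10. How reads matching several places were treated, and whether strand was used, is not given in the sources used here. Further columns without a name or values, 10 in number, were not used. An FPKM is relative to the library's total, and the depth enters only through the spread between tumours.

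From these values, log2(FPKM + 1) of the 14496 rows with a mean of at least 1 was tested for GSK343 against vehicle in limma 3.58.1 under R 4.3.3 (intensity trend, two-sided), with Benjamini-Hochberg adjustment over all those rows and a call at an adjusted p under 0.05. Differences on this scale understate changes of low rows. The fitting was tested on simulated data. Gene positions and types came from GENCODE M21 (mm10), which held all 76 members. Transcripts of 10244 processed pseudogenes were aligned to all protein-coding transcripts with minimap2. A row was given to the best-matching member if that match held at least 95% of the matched bases of the best hit. The best hit itself could therefore be a gene that is not a member. An identity of at least 80% over at least 50% of the bases was required. Members and gene lists were chosen with earlier results of these data known. Besides Rps21 and its microRNA, the members named were the 6 with the smallest p in each direction, the 4 highest and 4 lowest means, Rplp0 to Rplp2, Rpsa, Rpl5, Rpl11, Rps6 and 5 with a known paralog, apart from 1 member that is not reported here. For each list up to 3 genes of smallest p could be named. Alternatives covered the pseudocount, the filter, scaling, the variance model, tumour weights, covariates, pseudogene sums, the replicate number as a block and leaving out each tumour.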

Additional observations from a re-analysis of the deposited data

Results flagged for a closer look

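In 7 of the 72 groups of 5 values examined, 1 tumour stood apart from the other 4 by more than 0.71 of the group's range (Dixon's criterion), which chance does in about 1 group in 20. Vehicle replicate 1 stood high in Rpsa (1280.3 FPKM against 1035 to 1085 FPKM in the rest of its group) and in Rpl3 (838 FPKM against 635 to 691 FPKM). Vehicle replicate 2 stood high in Rpl17, a protein near the exit tunnel most of whose family sum stands in pseudogene rows (451 FPKM against 109.7 to 192 FPKM). GSK343 replicate 4, the tumour with the highest member share, stood high in Rpl11 (648 FPKM against 538 to 565 FPKM) and Rps27 (1929 FPKM against 1514 to 1609 FPKM). GSK343 replicate 1 stood low in both called copies of Rpl9, Gm15516 (13.8 FPKM against 22.2 to 25.3 FPKM) and Gm5451 (7.89 FPKM against 11.2 to 12.3 FPKM).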

How the results depend on the processing

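The number of members called was 0 under every alternative run. Leaving out each tumour in turn gave 46 to 61 members with a lower mean and medians of -0.15 to -0.037 (all), -0.19 to -0.064 (small subunit), -0.12 to -0.0089 (large subunit) and -0.16 to -0.074 (pseudogene rows), the members' median being nearest 0 without vehicle replicate 1 and farthest without GSK343 replicate 4. The difference in member share ran from -1.66 to -0.611 percentage points. With the pan-leukocyte covariate 19 members were lower, and the medians were 0.11 (all), 0.083 (small), 0.14 (large) and 0.060 (pseudogene rows). In that fit the sign turned for Rplp1 (0.017), Rplp2 (0.17), Rplp0 (0.36), Rpl7a (-0.20), Rps6 (0.12), Rps27 (0.084) and Rpl3 (0.013). The fit had all 5 tumours of each group, the score differed between the groups, and the cause was not tested.

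Rplp0, whose difference was near 0, turned positive with median-of-ratios scaling (0.020), quantile normalization (0.054), sums without mitochondrial genes (0.0039), tumour weights (0.0076), without GSK343 replicates 3 and 5 (0.27) and in some fits without 1 tumour (-0.11 to 0.11). Rpl17 turned with tumour weights (0.046) and without 1 tumour (-0.40 to 0.15). Rpl7a turned with a proliferation covariate (-0.10), with named pseudogenes added (-0.000497) and with aligned ones added (-0.066), as did Rpl21 with named (-0.20) and aligned (-0.21) ones.

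The row of Mir3091 was called in 24 of 25 alternatives that kept it, the exception being the replicate block (limma adjusted p = 0.117). These alternatives refit the same values, and the row passed the limit on the mean only through its GSK343 tumours. The count is therefore not further evidence of a difference. The count of called pseudogene rows, 4, was 0 to 16 when 1 tumour was left out. It was 0 without a filter, with either covariate, with the replicate block and without GSK343 replicates 3 and 5. It was 1 at a mean of at least 5 FPKM, with median-of-ratios scaling, quantile normalization or tumour weights, and 7 at an adjusted p under 0.1. Same-numbered tumours did not deviate together (correlations of -0.33 to 0.035 over rows), which gave no sign of pairing, though so few pairs cannot exclude it. With the replicate block over the shared numbers, 0 members were called, 60 were lower and the median was -0.15. The alternatives with aligned pseudogenes and without GSK343 replicates 3 and 5 were chosen after seeing the data. The depth is not given in the table, and the smallest changes these groups can show are set by the spread between tumours.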

Other observations

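Some small RNA rows inside members were uneven between tumours. Of the 30 tested, 12 had at least 1 tumour under 0.5 FPKM and at least 1 over 2 FPKM, in either group. In Mir3091, Gm22571 and Gm27326, which are among them, the low and the high tumours stood in different groups. The count therefore does not describe unevenness within a group. The examples that follow were chosen after their values were seen. Snora64, inside Rps2, stood at 7.51, 12.7, 0.0999, 8.02 and 0.0803 FPKM in the vehicle tumours and 10.7, 0.00852, 9.06, 0.0702 and 0.0753 FPKM in the GSK343 tumours. Snora7a, inside Rpl32, stood at 2.99, 4.56, 0.1104, 1.25 and 0.443 FPKM in the vehicle tumours and 4.72, 0.498, 5.68, 0.184 and 0.459 FPKM in the GSK343 tumours. In both, tumours near 0 and tumours at several FPKM occurred in each group. Mir3091 was near 0 in all vehicle tumours and in no GSK343 tumour. It passed the limit on the mean only through its GSK343 values, so nothing is read from the contrast with these examples. Gm27597, a row annotated as a microRNA inside Rpl19, stood at 1010.2 to 1436 FPKM in vehicle and 927 to 1443 FPKM in GSK343 tumours, a level of the order of Rpl19 itself (926 to 1517 FPKM over all tumours).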
